A study of Homo sapiens with 42 samples.

Results

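The 7 genes described here write, copy and remove DNA methylation: DNMT1, UHRF1, DNMT3A, DNMT3B, TET1, TET2 and TET3. They were chosen by name, as the enzymes of the pathway, from a table of 57820 genes. All 7 were found in the tables of each of the 5 cell lines. Messenger RNA was measured by RNA sequencing in 42 libraries of 5 human cell lines from B-ALL, an acute leukaemia of B-lymphocyte precursors, with added or depleted NSD2, a histone methyltransferase. Reh and 697 cells overexpressed NSD2 with the E1099K substitution (EK) or wild-type NSD2 (WT), or carried an empty vector (EV), with 2 libraries per arm in Reh and 3 in 697. SEM, RCH-ACV (titled RCH) and RS4;11 (titled RS411) received the hairpin sh2, which the series describes as the NSD2 knockdown, the hairpin sh5, which only the sample titles name, or a non-targeting hairpin (NT), with 3 libraries per arm. The added NSD2 came on top of each line's own NSD2, hairpins lower but do not delete their target, and no source used here says whether an engineered line is a clone or whether its replicates were separate cultures. The p-values therefore measure the spread between these libraries, which may be technical.

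Methylation of cytosine in CpG dinucleotides is copied to the new strand at each cell division by DNMT1, which UHRF1 brings to hemimethylated DNA. DNMT3A and DNMT3B set new methylation, and the PWWP domain of DNMT3A binds nucleosomes with dimethylated lysine 36 of histone H3 (H3K36me2), the mark that NSD2 writes. The TET enzymes oxidise 5-methylcytosine to 5-hydroxymethylcytosine and further, which leads to its loss through base excision repair or through dilution at replication. DNMT3A and TET2 are mutated in myeloid and other blood cancers, and the E1099K substitution in NSD2 recurs in childhood ALL.

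Promoter windows are shown for 5 of the genes, because those of the pair that acts at replication and of the genes called after knockdown in SEM differ in make-up. Each is a RefSeq window of 300 bases around a transcription start on the GRCh38.p14 assembly, most of it upstream, read 5′ to 3′ on the gene's strand. Where RefSeq gives several starts, the window nearest the gene's 5′ end was taken. Capitals in UHRF1 (chr19:4909251-4909550, plus strand) mark overlapping matches to the E2F motif on opposite strands, in DNMT1 (chr19:10194904-10195203, minus strand) the single E2F match, in DNMT3A (chr2:25342541-25342840, minus strand) and DNMT3B (chr20:32779602-32779901, plus strand) every CpG, and in TET2 (chr4:105145625-105145924, plus strand) the E box.
UHRF1: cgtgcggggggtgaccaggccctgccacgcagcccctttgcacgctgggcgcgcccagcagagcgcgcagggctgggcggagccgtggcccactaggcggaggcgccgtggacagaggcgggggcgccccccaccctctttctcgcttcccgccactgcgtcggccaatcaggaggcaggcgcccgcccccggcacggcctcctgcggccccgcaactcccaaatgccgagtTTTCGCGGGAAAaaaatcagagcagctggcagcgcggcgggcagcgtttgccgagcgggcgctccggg
DNMT1: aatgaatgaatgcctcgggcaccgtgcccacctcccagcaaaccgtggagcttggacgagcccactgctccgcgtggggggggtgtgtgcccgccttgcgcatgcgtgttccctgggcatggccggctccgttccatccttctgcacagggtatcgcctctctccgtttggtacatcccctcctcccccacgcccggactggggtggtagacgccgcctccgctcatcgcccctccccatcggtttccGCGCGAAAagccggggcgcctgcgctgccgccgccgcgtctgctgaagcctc
DNMT3A: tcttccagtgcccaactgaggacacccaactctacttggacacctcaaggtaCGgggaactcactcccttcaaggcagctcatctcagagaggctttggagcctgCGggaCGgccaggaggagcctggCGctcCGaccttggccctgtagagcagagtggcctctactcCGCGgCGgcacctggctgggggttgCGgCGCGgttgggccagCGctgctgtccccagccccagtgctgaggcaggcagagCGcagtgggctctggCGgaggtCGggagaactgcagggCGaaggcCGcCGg
DNMT3B: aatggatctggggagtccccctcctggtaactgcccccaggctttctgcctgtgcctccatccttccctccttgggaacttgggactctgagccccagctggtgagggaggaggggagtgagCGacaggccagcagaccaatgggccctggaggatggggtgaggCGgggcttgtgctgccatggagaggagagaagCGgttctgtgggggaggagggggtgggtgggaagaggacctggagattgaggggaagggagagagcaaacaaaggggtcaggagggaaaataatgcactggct
TET2: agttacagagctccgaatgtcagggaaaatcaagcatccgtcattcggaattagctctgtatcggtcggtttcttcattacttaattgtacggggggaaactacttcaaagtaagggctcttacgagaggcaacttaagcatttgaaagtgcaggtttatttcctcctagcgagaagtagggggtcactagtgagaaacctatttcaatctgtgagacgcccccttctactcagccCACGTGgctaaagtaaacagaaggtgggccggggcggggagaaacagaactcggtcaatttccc

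CpG content separated these windows. UHRF1 had 36 CpG and 74% G+C, DNMT1 had 30 CpG and 68.3%, DNMT3A had 18 CpG and 67%, TET2 had 13 CpG and 47.7%, and DNMT3B had 3 CpG and 61.7%, while the median over 35114 RefSeq promoter windows was 14 CpG and 58.7%. The DNMT3B window, the only one available for it, lies 17.47 kb inside the span RefSeq gives the gene and the UHRF1 window 6.42 kb inside, so other starts of these genes may not be covered. The 3 CpG of DNMT3B describe this inner start and not the 5′ end of the gene. Which starts these cells use was not measured. TET1 and TET3, not printed, had 10 and 45 CpG. The E2F motif was searched on both strands as the words TTTCCCGC, TTTCCCGG, TTTCGCGC, TTTCGCGG, TTTGCCGC, TTTGCCGG, TTTGGCGC and TTTGGCGG, which occur in 6.19% of the windows. UHRF1 and DNMT1 were the 2 of the 7 genes with a match. The E box CACGTG, found in 7.26% of windows, occurred in TET2 once and in TET3 at 2 positions. A match is a run of letters in this window and not a measured binding site.

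Libraries held between 21941718 and 67796769 reads assigned to genes. NSD2 followed the labels in every line: all libraries of both hairpins were below all NT libraries of their line, and all EK and WT libraries above all EV libraries. SEM had 166, 173 and 179 CPM of NSD2 (reads of the gene scaled to the size of its library) in sh2 and 132, 146 and 146 CPM in sh5, against 331, 335 and 364 CPM in NT. The log2 fold change of NSD2 against the control arm was 1.54 ± 0.12 (SE) for EK and 1.55 ± 0.12 for WT in Reh and 3.14 ± 0.19 and 3.26 ± 0.19 in 697. For sh2 and sh5 it was -0.99 ± 0.06 and -1.28 ± 0.06 in SEM, -0.71 ± 0.20 and -0.83 ± 0.21 in RS411 and -0.77 ± 0.21 and -0.80 ± 0.21 in RCH, where the tests of RS411 and RCH did not pass (adjusted p between 0.0952 and 0.508). The joint edgeR fit of the 3 knockdown lines called NSD2 lower with sh2 (-0.81 ± 0.10, adjusted p = 1.03e-05) and sh5 (-0.96 ± 0.11, adjusted p = 3.93e-06). B-lineage markers were present: all 11 markers reached a mean of 1 CPM in 4 lines and all 10 in the table in Reh, while CD3D, CD3E and CD3G of the T-cell and NK-cell list were at or near 0 in those 4 lines. NKG7 of that list ranged from 1.28 to 3.55 CPM in Reh, 7.28 to 13.5 CPM in 697, 35.6 to 43.3 CPM in RS411, 8.25 to 13.5 CPM in RCH and 12.3 to 21.6 CPM in SEM. Some libraries stood apart on single genes. Replicate 2 of every Reh arm had more TET1 than replicate 1, and EK replicate 2 of 697 had more TET3 than the other 697 libraries.

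Levels of the 7 genes in the control arms differed between lines far more for TET1 and TET2 than for the others. Over all 42 libraries the highest CPM was 2.03 times the lowest for DNMT3A, 2.19 for DNMT1, 2.80 for UHRF1, 3.60 for DNMT3B and 4.75 for TET3, against 951 for TET1 and 1292 for TET2. The tables of the 5 lines were normalized separately, so an order of lines is a description. DNMT1 averaged 454 ± 21.5 CPM in Reh EV libraries (SD, n = 2), 339 ± 45.4 CPM in 697 EV libraries (n = 3), and between 253 and 259 CPM in the NT libraries of the other lines, where the ranges of neighbours overlapped. UHRF1 was likewise highest in Reh, at 882 ± 89.8 CPM, apart from the next line, and the other 4 lines overlapped between 491 CPM in RCH and 649 CPM in SEM.

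DNMT3A had another order. It averaged 124 ± 5.84 CPM in RCH and 116 ± 3.66 CPM in 697, which overlapped, then 98.9 ± 2.13 CPM in Reh, and 81.3 ± 1.84 and 81.2 ± 3.23 CPM in SEM and RS411, which overlapped again. DNMT3B was highest in Reh, at 34.1 ± 5.61 CPM, 1.50 times the 697 mean of 22.7 ± 5.91 CPM, and each of 697, SEM, RCH and RS411 overlapped its neighbour in the order. Genes were compared per kilobase of exon, where the length is that of all annotated exons of a gene and not of the transcripts in use. On that scale DNMT3B made up between 25.7 ± 2.07% of the summed DNMT3A and DNMT3B level in RCH NT cells and 47.1 ± 3.58% in Reh EV cells. DNMT3A was the higher of the pair in every control arm.

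TET1 averaged 63.4 ± 25.0 CPM in Reh, 17.0 times the 3.73 ± 1.17 CPM of RCH. RCH and RS411 (3.23 ± 1.20 CPM) overlapped, and SEM (1.16 ± 0.143 CPM) and 697 (0.378 ± 0.231 CPM) each lay apart below. TET2 averaged 117 ± 25.1 CPM in Reh and between 42.3 and 47.9 CPM in SEM, RS411 and RCH, which overlapped, and 0.158 ± 0.0714 CPM in 697, 269 times less than SEM. The 9 libraries of 697 held 5 to 11 TET2 reads each, too few for the test. TET3 was the least variable of the 3, at 89.7 ± 10.4 CPM in 697 and 83.5 ± 6.72 CPM in Reh, which overlapped, then 63.5 ± 1.22, 53.9 ± 4.85 and 48.2 ± 4.55 CPM in RS411, RCH and SEM, of which RCH and SEM overlapped. Nearly all TET transcripts of 697 were TET3: its share of the summed CPM per kilobase was between 98.9% and 99.8% in the 9 libraries. Reh carried all 3, with TET1 between 26.4% and 40.9%, TET2 between 29.2% and 34.7% and TET3 between 29.8% and 41.3%.

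**Figure D1:**
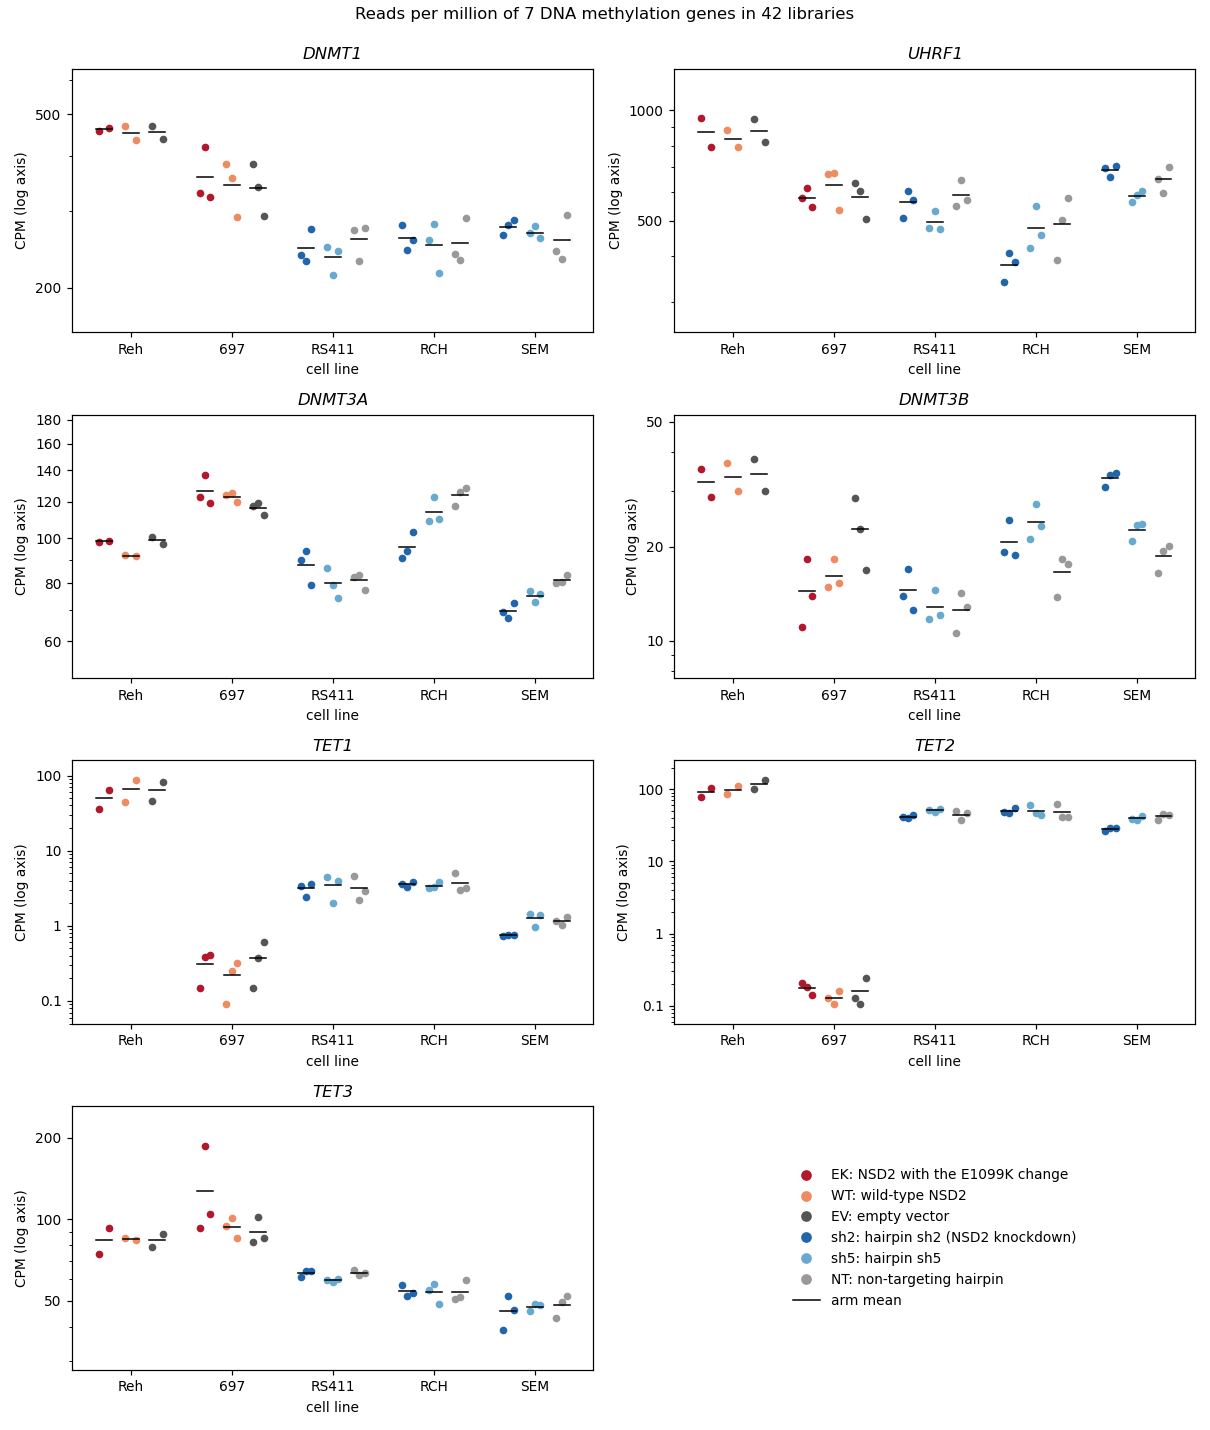
CPM (log axis, a scale per gene) of the 7 genes in each of the 42 libraries, by line and arm; points are libraries and bars arm means. TET1 and TET2 are low in 697 and high in Reh, while DNMT1, UHRF1, DNMT3A, DNMT3B and TET3 stay within 4.75 times of their lowest library.

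**Figure D2:**
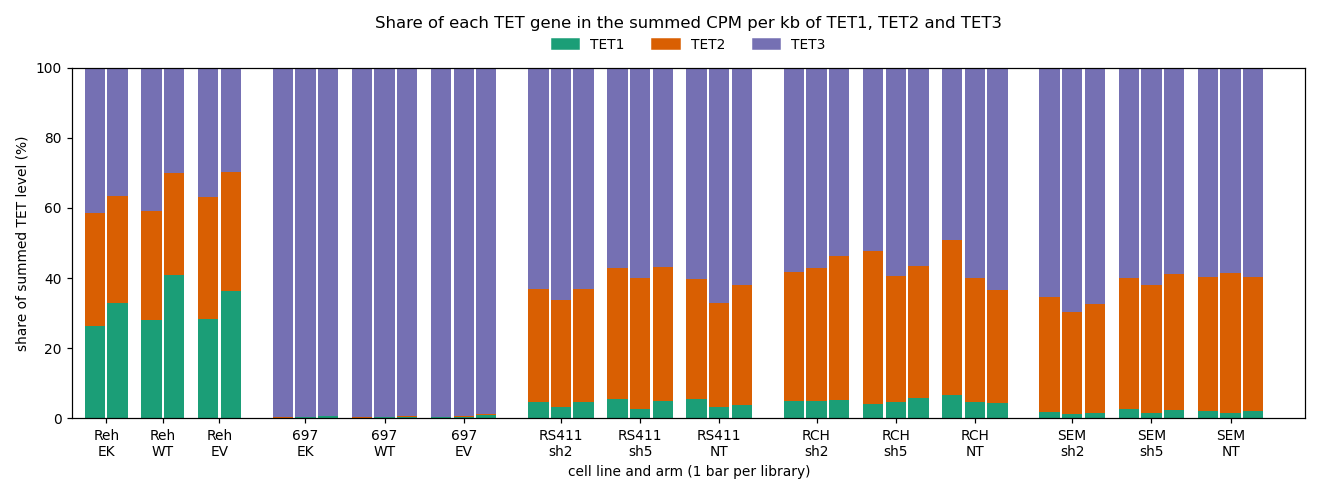
Share (%) of TET1, TET2 and TET3 in their summed CPM per kilobase of exon, 1 bar per library in each line and arm. The 697 bars are TET3 at 98.9% or more, Reh bars hold all 3 genes, and in SEM the TET2 part is smaller in sh2 than in sh5 and NT.

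Raising NSD2 in Reh and 697 was followed by no called change in any of the 7 genes at an adjusted p under 0.05. In Reh, 0 of 7 genes were called for EK against EV (of all genes tested, 0.213% were called), 0 of 7 for WT against EV (0.219%) and 0 of 7 for EK against WT (0%) by edgeR's quasi-likelihood test, with 0 at an unadjusted p under 0.05 and 0 by DESeq2 in each. In 697, limma called 0 of the 6 genes with enough reads for EK against EV (0.172% of all genes), 0 of 6 for WT against EV (0.190%) and 0 of 6 for EK against WT (0%). At an unadjusted p under 0.05 those counts were 1, 0 and 0, and edgeR on the recovered reads called 0 in each. Counts of 0 lie near these background shares and are no result about the 7 genes.

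Knockdown of NSD2 was followed by called changes in SEM, the line with the most calls over all genes. There DNMT3B rose and DNMT3A and TET2 fell with sh2, 3 of 7 genes where 27.9% of all genes were called, and DNMT3B rose with sh5, 1 of 7 where 21.3% were called. These SEM counts lie near the background shares and are no result about the 7 genes as a group. RS411 had 0 of 7 called with sh2 (1.67% of all genes) and 0 of 7 with sh5 (0.478%) by edgeR, 0 and 2 at an unadjusted p under 0.05, and 0 with either hairpin by DESeq2. These tests had no replicate block, and with it edgeR called UHRF1 in RS411 sh5 (adjusted p = 0.0143). RCH had 0 of 7 with sh2 (1.37%) and 0 of 7 with sh5 (0.0229%) by edgeR, 2 and 1 at an unadjusted p under 0.05, and 0 with either hairpin by DESeq2. A joint edgeR fit of the 3 lines, averaging their responses, called DNMT3B higher and DNMT3A lower with sh2 (15.0% of all genes called) and DNMT3B higher with sh5 (5.11%). Between sh2 and sh5 the joint fit called 0 of 7 genes (4.72% of all genes), 2 at an unadjusted p under 0.05 and 1 by DESeq2. The difference between lines was called for 1 of 7 genes with sh2 (7.93% of all genes) and 0 of 7 with sh5 (1.75%), where 0 were under an unadjusted p of 0.05 and 0 were called by DESeq2. The sh2 and sh5 comparisons share their NT libraries.

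**Figure D3:**
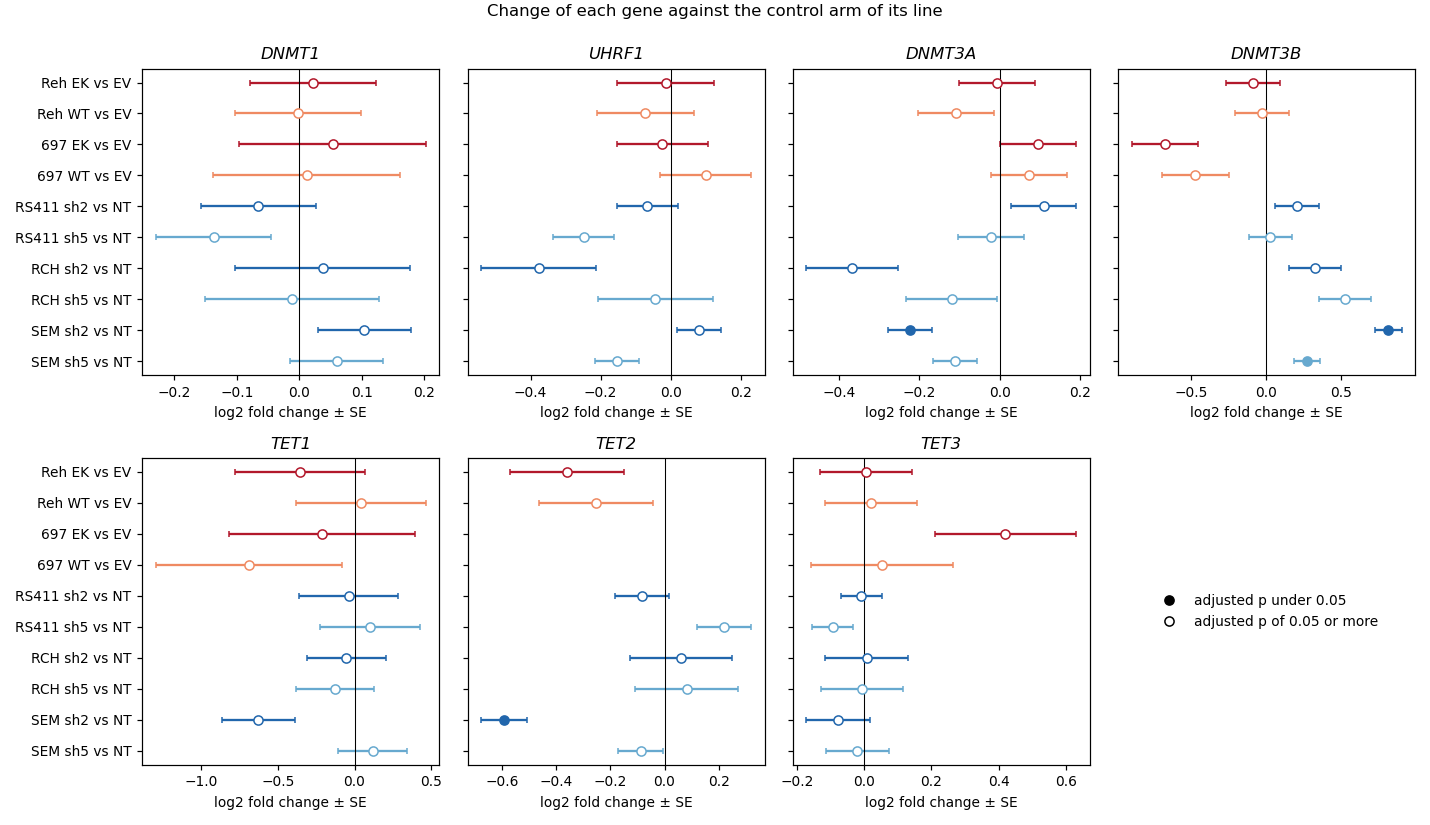
Log2 fold change ± SE of each gene against the control arm of its line (EV or NT), 1 row per comparison and a scale per gene; filled points have an adjusted p under 0.05. The filled points are all in SEM: DNMT3B with sh2 and sh5, and DNMT3A and TET2 with sh2. TET2 of 697 was not tested.

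DNMT1, the maintenance methyltransferase, passed no test in any comparison as reported. It shares a stretch of exon with S1PR2 in the annotation, and no source used here says how reads there were counted. SEM held 264, 279 and 286 CPM in sh2 and 266, 277 and 260.1 CPM in sh5, against 243, 233 and 294 CPM in NT. The arms overlapped, with log2 fold changes of 0.10 ± 0.07 for sh2 (95% interval -0.04 to 0.25) and 0.06 ± 0.07 for sh5 (95% interval -0.09 to 0.21). Without NT replicate 3 the sh2 value was 0.21 and passed (adjusted p = 0.0186). DNMT1 in RS411 was 238, 231 and 272 CPM in sh2 and 248, 214 and 244 CPM in sh5, against 271, 230.4 and 275 CPM in NT. RCH showed the same overlap, with 279, 244 and 257 CPM in sh2 and 258, 279.7 and 216 CPM in sh5, against 239, 232 and 289 CPM in NT.

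DNMT1 was not called with added NSD2. In Reh it was 458 and 465 CPM in EK and 470.2 and 437 CPM in WT, against 469.7 and 439 CPM in EV (log2 fold change 0.02 ± 0.10 for EK, 95% interval -0.18 to 0.22). In 697 it was 331, 422 and 323 CPM in EK and 385, 357 and 291 CPM in WT, against 384, 341 and 293 CPM in EV. The spread within each 697 arm was wider than the difference between arms, and the log2 fold change of EK was 0.05 ± 0.15 (95% interval -0.24 to 0.35).

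UHRF1, which recognises hemimethylated CpG and recruits DNMT1, had the highest CPM per kilobase of exon of the 7 genes in every library. A processed pseudogene listed as RP11-424C20.2 shares 105 of its 137 words of 54 bases (76.6%) with UHRF1, the read length used here, and took between 3.11% and 9.42% of the reads of the pair, so the split of reads between UHRF1 and that copy is uncertain. In the tests as reported, which had no replicate block, UHRF1 was called in none of the comparisons with a control arm. In SEM it was 695, 658 and 707 CPM in sh2 and 564, 586 and 601 CPM in sh5, against 650.5, 594 and 703 CPM in NT. Both hairpin arms overlapped NT, and every sh2 library was above every sh5 library. The fold change against NT was 0.08 ± 0.06 on the log2 scale for sh2 (adjusted p = 0.382) and -0.15 ± 0.06 for sh5 (adjusted p = 0.0967, or 0.0189 with the replicate number as a block and 0.0224 without NT replicate 2). Between the hairpins, sh2 exceeded sh5 by 0.23 ± 0.06 (adjusted p = 0.0214, with 12.4% of all genes called), and leaving out sh2 replicate 1 or 3 or sh5 replicate 1 or 2 ended that call (adjusted p between 0.0564 and 0.0936).

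RS411 held 509, 604 and 570.1 CPM of UHRF1 in sh2 and 478, 531 and 475 CPM in sh5, against 548, 644 and 570.1 CPM in NT. Every sh5 library was below every NT library, with a log2 fold change of -0.25 ± 0.09 (adjusted p = 0.306, or 0.0143 with the replicate block). In RCH the values were 340.1, 407 and 386 CPM in sh2 and 422, 549 and 458 CPM in sh5, against 390.3, 504 and 578 CPM in NT. Every sh2 library was below every sh5 library, the reverse of SEM, at -0.33 ± 0.16 between the hairpins (adjusted p = 0.523). Both hairpin arms overlapped NT, at -0.38 ± 0.16 for sh2 (adjusted p = 0.250) and -0.04 ± 0.16 for sh5. UHRF1 also overlapped between arms with added NSD2. In Reh it was 951 and 795 CPM in EK and 883 and 793 CPM in WT, against 945 and 818 CPM in EV. In 697 it was 576, 613 and 546 CPM in EK and 669.8, 673 and 534 CPM in WT, against 633, 604 and 504 CPM in EV.

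UHRF1 and DNMT1 are S-phase genes in dividing cells. Examples of 24 S-phase genes are MCM2 of the replicative helicase and the ribonucleotide reductase subunit RRM2. Of the 24, edgeR called 0 with sh2 in SEM, where 27.9% of all genes were called, with 3 at an unadjusted p under 0.05. With sh5, 1 rose (CCNE2) and 1 fell (RFC3), where 21.3% of all genes were called. The median log2 fold change of the 24 in SEM was -0.02 with sh2 and -0.01 with sh5, against 0.01 and -0.01 over all genes. The summed CPM of these genes ran from 4129 to 4523 in the sh2 libraries of RCH and from 4723 to 5385 in its NT libraries, beside the lower UHRF1 values of RCH sh2. For RCH sh2 edgeR called 0 of the 24 genes, where 1.37% of all genes were called, with 2 at an unadjusted p under 0.05. The median log2 fold change was -0.20 against -0.02 over all genes, and the part of these sums in the UHRF1 values was not tested. In RS411 the sums ran from 4852 to 5052 CPM in sh5 and from 5261 to 5576 CPM in NT beside the lower UHRF1 values of sh5. There edgeR called 0 of the 24 genes, where 0.478% of all genes were called, with 4 at an unadjusted p under 0.05. The median log2 fold change was -0.11 against -0.02 over all genes, and the part of the RS411 sums in its UHRF1 values was not tested.

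DNMT3B, a de novo methyltransferase that is low in most mature cells, was the gene with the largest called rise. SEM had 31.0, 33.8 and 34.3 CPM in sh2 and 20.8, 23.5 and 23.6 CPM in sh5, against 16.5, 19.4 and 20.1 CPM in NT. The 3 arms did not overlap, with sh2 highest and NT lowest. The log2 fold change was 0.82 ± 0.09 for sh2 (1.77-fold, adjusted p = 4.36e-06) and 0.28 ± 0.09 for sh5 (1.21-fold, adjusted p = 0.0379). These are bulk RNA values, in which more cells of a type and more RNA per cell cannot be told apart. DNMT3B differed between the hairpins by 0.54 ± 0.09 (sh2 over sh5, adjusted p = 5.46e-04), while NSD2 was 0.29 ± 0.06 higher in sh2 than in sh5 (adjusted p = 0.00425). The arm with the lower NSD2 was thus not the arm with the higher DNMT3B. The sh5 call was lost with the compared arms alone (adjusted p = 0.0609), with a stricter filter (0.0504), and without NT replicate 1 or 2 or sh5 replicate 2 or 3 (0.0542 to 0.124).

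In RCH DNMT3B was 19.3, 24.3 and 18.7 CPM in sh2 and 21.2, 27.3 and 23.3 CPM in sh5, against 13.8, 18.3 and 17.6 CPM in NT. Every library of both hairpins was above every NT library, but neither passed its test: 0.33 ± 0.17 for sh2 (adjusted p = 0.325) and 0.53 ± 0.17 for sh5 (adjusted p = 0.849). RS411 held 13.9, 17.0 and 12.6 CPM in sh2 and 11.8, 14.5 and 12.1 CPM in sh5, against 10.6, 14.2 and 12.9 CPM in NT. These arms overlapped, at 0.21 ± 0.15 (95% interval -0.08 to 0.49) and 0.03 ± 0.15 (95% interval -0.26 to 0.32). The mean response of the 3 lines in the joint fit was 0.47 ± 0.08 for sh2 (adjusted p = 1.69e-04) and 0.29 ± 0.08 for sh5 (adjusted p = 0.0317). Its difference between lines did not pass for sh2 (adjusted p = 0.105, or 0.00376 with the replicate block and 0.0435 without NT replicate 1 of RCH) or sh5 (adjusted p = 0.533). Without SEM, the mean of RS411 and RCH was 0.28 for sh2 (adjusted p = 0.169) and 0.29 for sh5 (adjusted p = 0.444), so the joint calls of DNMT3B were lost without SEM. The sh5 mean also lost its call without RCH (adjusted p = 0.285) and, one at a time, without replicate 1 of NT or replicate 2 of sh5 in each line, or replicate 3 of sh5 in SEM (0.25 to 0.28, adjusted p between 0.0501 and 0.0724).

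**Figure D4:**
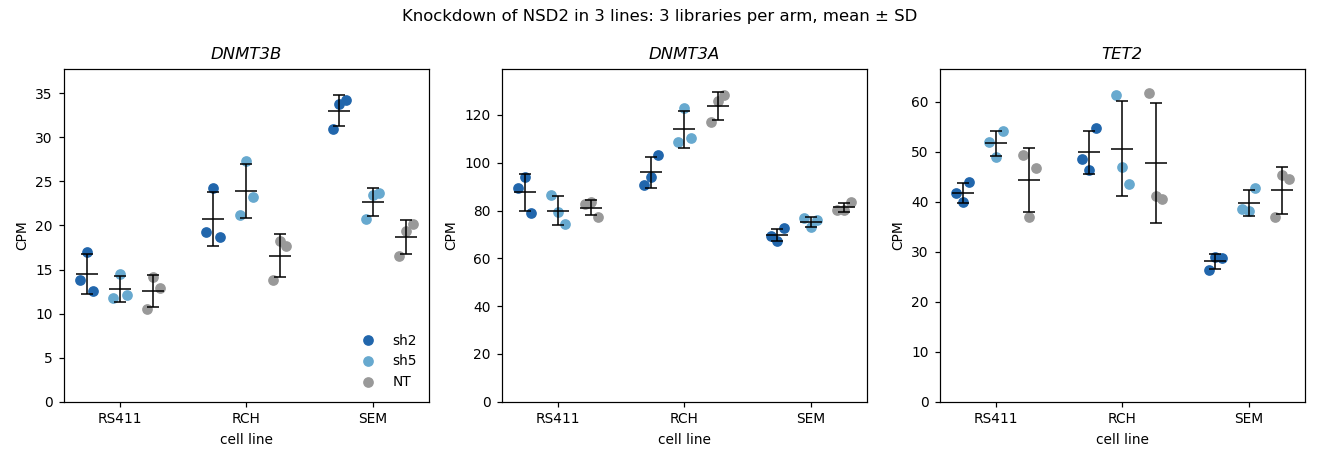
CPM of DNMT3B, DNMT3A and TET2 in the knockdown lines, by arm (sh2, sh5, NT); points are libraries and bars the mean ± SD of 3. DNMT3B separates the 3 arms in SEM and both hairpins from NT in RCH, DNMT3A is lowest in sh2 in SEM and RCH, and TET2 is low in sh2 of SEM.

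With added NSD2, DNMT3B had lower means in 697 that did not pass the test. The authors' normalized counts were 532, 836 and 669.8 in EK and 711, 876 and 734 in WT, against 1389.9, 1084 and 810.1 in EV. EV replicate 3 lay within the range of both other arms, and in every replicate number EK was below WT and WT below EV. The log2 fold change, on the log2(normalized count + 1) scale, was -0.68 ± 0.22 for EK (adjusted p = 0.769, or 0.131 with the replicate block) and -0.47 ± 0.22 for WT (adjusted p = 1). Reh libraries of the same replicate number had the same order, within overlapping arms, with 35.4 and 28.9 CPM in EK and 37.0 and 30.0 CPM in WT, against 38.1 and 30.1 CPM in EV, and a log2 fold change of -0.09 ± 0.18 for EK (95% interval -0.44 to 0.27).

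**Figure D5:**
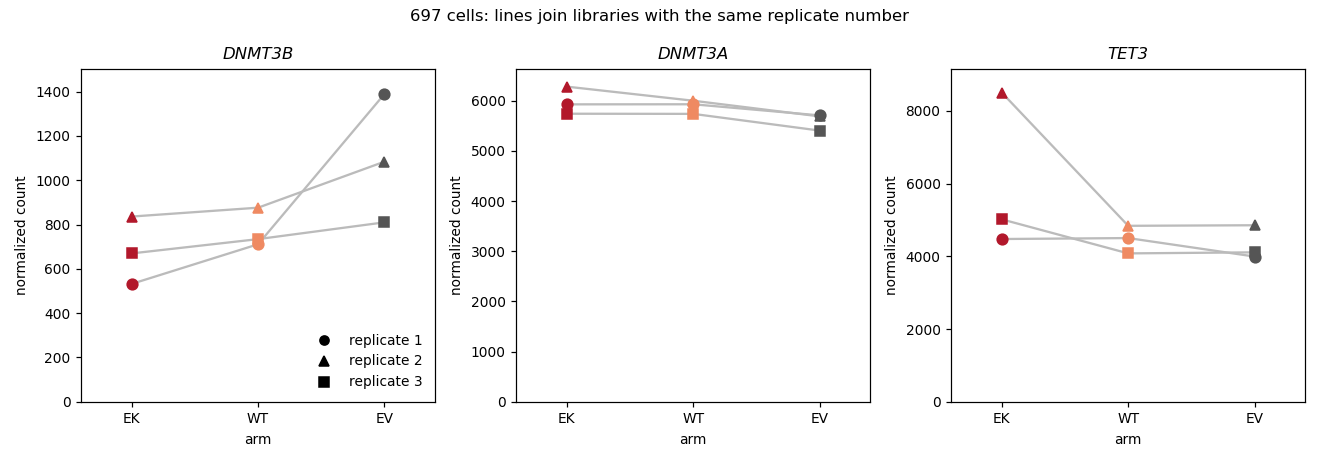
Authors' normalized counts (linear axes from 0) of DNMT3B, DNMT3A and TET3 in 697 by arm (EK, WT, EV); points are libraries, and lines join those with the same replicate number. DNMT3B is lowest in EK in each replicate number, DNMT3A differs little, and TET3 of EK replicate 2, at 8501, stands above the rest.

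DNMT3A, the de novo enzyme whose PWWP domain reads H3K36me2, moved by less than DNMT3B. It was 69.3, 67.4 and 72.5 CPM in sh2 and 77.0, 73.0 and 75.9 CPM in sh5 of SEM, against 80.2, 80.4 and 83.5 CPM in NT. The arms did not overlap, in the reverse order to DNMT3B. The sh2 fall passed the test, at -0.22 ± 0.05 on the log2 scale (0.857-fold, adjusted p = 0.00639), and the sh5 value did not, at -0.11 ± 0.05 (adjusted p = 0.169). The sh2 and sh5 arms differed by -0.11 ± 0.05 (adjusted p = 0.246), so the hairpins were not shown to differ. RCH held 90.7, 94.1 and 103 CPM in sh2 and 109, 123 and 110.2 CPM in sh5, against 117, 126 and 128 CPM in NT. Every sh2 library was below every NT library, at -0.37 ± 0.11, a larger value than in SEM that missed the threshold (adjusted p = 0.134).

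DNMT3A had a higher mean in sh2 of RS411 that did not pass the test. It was 89.6, 94.1 and 79.1 CPM in sh2 and 86.4, 79.2 and 74.4 CPM in sh5, against 82.7, 83.4 and 77.5 CPM in NT, and the arms overlapped. Its log2 fold change was 0.11 ± 0.08 for sh2 (95% interval -0.05 to 0.27). In the joint fit the difference between lines in the sh2 response of DNMT3A passed (adjusted p = 0.0184) and the mean response was -0.14 ± 0.04 (adjusted p = 0.0295). That mean lost its call without RCH (-0.06, adjusted p = 0.440), without SEM (adjusted p = 0.349), with no low-count filter (adjusted p = 0.312) and, one at a time, without NT replicate 1 or 2 or sh2 replicate 3 of RS411, NT replicate 2 or sh2 replicate 1 or 2 of RCH, or NT replicate 3 or sh2 replicate 1 or 2 of SEM (-0.12 to -0.14, adjusted p between 0.0511 and 0.0792). The difference between lines lost its call with no low-count filter (adjusted p = 0.0748), without RS411 (0.503) or SEM (0.0933), and without NT replicate 3 or sh2 replicate 1 or 2 of RS411 (adjusted p between 0.0523 and 0.0649).

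Added NSD2 was not followed by a called change of DNMT3A in either line. In 697 the normalized counts were 5927, 6281 and 5741 in EK and 5929, 5999.9 and 5738 in WT, against 5708, 5688 and 5405 in EV. Every EK and WT library was above every EV library, by 0.09 ± 0.09 for EK (95% interval -0.09 to 0.28) and 0.07 ± 0.09 for WT. In Reh it was 98.2 and 98.7 CPM in EK and 92.0 and 91.4 CPM in WT, against 100.4 and 97.4 CPM in EV. The EK libraries lay between the EV libraries and the WT libraries lay below them, at -0.11 ± 0.09 for WT (95% interval -0.29 to 0.08).

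The balance of the de novo pair can be given as a share. Per kilobase of exon, DNMT3B made up 55.1 ± 1.41% of the pair in sh2 and 43.8 ± 2.29% in sh5 of SEM, against 37.3 ± 2.13% in NT (SD, n = 3 each). On this scale SEM sh2 was the 1 arm of 15 in which DNMT3B exceeded DNMT3A on average. That order rests on the annotated exon lengths, 12020 bases for DNMT3A and 4630 for DNMT3B. In CPM, DNMT3A was the higher in SEM sh2, at 69.7 against 33.0. The shares in RCH were 35.9 ± 4.04% in sh2 and 35.2 ± 1.50% in sh5, against 25.7 ± 2.07% in NT. In 697 they were 22.6 ± 3.44% in EK and 25.4 ± 1.91% in WT, against 33.3 ± 5.36% in EV. The arms of Reh (between 45.7% and 48.5%) and RS411 (between 28.5% and 29.9%) stayed within 3 percentage points of each other. These shares restate the levels and were not tested.

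TET2, a dioxygenase that begins active demethylation, fell with sh2 in SEM and was called in no other line in the tests as reported. It was 26.4, 29.0 and 28.8 CPM in sh2 and 38.5, 38.1 and 42.8 CPM in sh5, against 37.0, 45.4 and 44.6 CPM in NT. The sh2 libraries were below all others, and sh5 overlapped NT. The log2 fold change was -0.59 ± 0.08 for sh2 (0.663-fold, adjusted p = 7.33e-05) and -0.09 ± 0.08 for sh5 (95% interval -0.25 to 0.07, adjusted p = 0.511). Between sh2 and sh5 it differed by -0.50 ± 0.08 (adjusted p = 7.88e-04). TET2 was thus lower in sh2 than in sh5, while NSD2 was lower in sh5 than in sh2.

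TET2 in RS411 was 41.7, 39.9 and 43.9 CPM in sh2 and 51.9, 49.0 and 54.1 CPM in sh5, against 49.4, 37.0 and 46.7 CPM in NT. Every sh2 library was below every sh5 library, at -0.30 ± 0.10 between the hairpins (adjusted p = 0.207, or 0.00915 with the replicate block, with 0.577% of all genes called). In RCH the arms overlapped, with 48.6, 46.4 and 54.7 CPM in sh2 and 61.4, 47.0 and 43.5 CPM in sh5, against 61.7, 41.2 and 40.7 CPM in NT. The difference between lines in the sh2 response did not pass (adjusted p = 0.0968), but passed with the replicate block (0.0092), with no low-count filter (0.0125), without RCH (0.0356) and without NT replicate 1 of RCH (0.00517). Reh held 78.2 and 104 CPM in EK and 87.2 and 109 CPM in WT, against 99.4 and 135 CPM in EV. In each arm of Reh replicate 2 exceeded replicate 1, in each replicate number EK was below WT and WT below EV, the arms overlapped, and the log2 fold change of EK was -0.36 ± 0.21 (95% interval -0.77 to 0.05).

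TET1, the relative of TET2 with a CXXC domain that binds CpG-rich DNA, was a low gene outside Reh. Its values in SEM were 0.742, 0.752 and 0.761 CPM in sh2 (29, 24 and 29 reads) and 1.45, 0.962 and 1.37 CPM in sh5 (55, 36 and 52 reads), against 1.16, 1.02 and 1.31 CPM in NT (40, 38 and 49 reads). The sh2 libraries lay below all others, as for TET2, but the change of -0.63 ± 0.24 did not pass (adjusted p = 0.0624). It passed with the replicate block (adjusted p = 0.0403) and with a stricter filter (0.0440), and its adjusted p ranged up to 0.190 over the other settings. RS411 (1.99 to 4.55 CPM) and RCH (2.96 to 5.08 CPM) had overlapping arms. In Reh TET1 was 36.1 and 63.3 CPM in EK and 44.2 and 86.5 CPM in WT, against 45.8 and 81.1 CPM in EV. Replicate 2 was higher than replicate 1 in each arm, by more than any difference between arms. EK was lowest in each replicate number and gave -0.35 ± 0.42 (95% interval -1.18 to 0.48). The 5 to 28 TET1 reads per 697 library could show only large changes (EK -0.21 ± 0.61, WT -0.69 ± 0.61).

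TET3, the third dioxygenase, passed no test. SEM had 39.1, 51.9 and 46.2 CPM in sh2 and 45.7, 48.5 and 48.4 CPM in sh5, against 43.1, 49.7 and 51.9 CPM in NT. RS411 had 61.0, 64.3 and 64.2 CPM in sh2 and 59.5, 58.7 and 60.3 CPM in sh5, against 64.8, 62.3 and 63.4 CPM in NT, where the sh5 libraries were below all NT libraries by a small amount (-0.09 ± 0.06, adjusted p = 0.612). RCH ran from 48.5 to 59.5 CPM over 9 libraries, with overlapping arms. In Reh it was 74.7 and 92.9 CPM in EK and 85.6 and 83.8 CPM in WT, against 78.7 and 88.2 CPM in EV.

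A single library set the TET3 value of 697. Normalized counts were 4475, 8501 and 5016 in EK and 4501, 4839 and 4079.9 in WT, against 3993, 4854 and 4109 in EV. The log2 fold change of EK was 0.42 ± 0.21 (adjusted p = 0.986) with EK replicate 2 and 0.14 without it. The same library was high for other genes: EP300, a histone acetyltransferase gene, had 64.9, 209.7 and 84.2 CPM in EK and 70.2, 65.7 and 57.8 CPM in WT, against 61.0, 65.7 and 59.0 CPM in EV. The part of that library's other differences in the TET3 value was not tested.

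The make-up of the TET transcripts of SEM is given as shares, which restate the levels and were not tested. TET2 made up 31.1 ± 1.96% of the summed TET level per kilobase in sh2 and 37.6 ± 1.29% in sh5, against 38.8 ± 0.952% in NT (SD, n = 3 each). TET1 was 1.33% to 2.51% in the 9 SEM libraries, and TET3 made up the rest. In RS411 TET2 ranged from 29.7% to 38.1% and in RCH from 32.3% to 44.5% over all arms.

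Partners of the 7 genes were read from lists of the pathway. Their counts in SEM stand against the shares of all genes called there, 27.9% with sh2 and 21.3% with sh5. Of the maintenance partners, 8 of 9 were tested in SEM. HELLS, the remodeller of heterochromatin that acts with CDCA7, fell with sh2 (-0.19 ± 0.06, adjusted p = 0.0261) as the 1 of 8 called there, and 4 of 8 fell with sh5. These were UHRF2, the paralogue of UHRF1 (-0.35 ± 0.07, adjusted p = 0.00150), HELLS (-0.28 ± 0.06, adjusted p = 0.00371), CDCA7L (-0.27 ± 0.06) and CDCA7 (-0.22 ± 0.05). HELLS averaged 147 ± 7.75 CPM in sh2 and 139 ± 4.65 CPM in sh5, against 168 ± 10.4 CPM in NT. The median log2 fold change of the 8 was -0.05 with sh2 and -0.18 with sh5, against 0.01 and -0.01 over all genes.

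Some genes of the list of methyl-CpG readers, in which not every gene need bind methylated CpG, were called in SEM. ZBTB4, a zinc-finger reader, rose with sh2 (0.43 ± 0.09, adjusted p = 0.00169) and sh5 (0.41 ± 0.09, adjusted p = 0.00388), at 22.1 ± 0.437 CPM in sh2 and 21.6 ± 1.82 CPM in sh5, against 16.3 ± 1.47 CPM in NT. ZBTB33 (Kaiso) fell with sh2 (-0.22 ± 0.05, adjusted p = 0.00582), and MBD3, a subunit of the NuRD complex, rose with sh5 (0.30 ± 0.06, adjusted p = 0.00196). Of 7 listed genes tested, 1 rose and 1 fell with sh2, where 27.9% of all genes were called, and 2 rose with sh5, where 21.3% were called. These counts lie near the background and are no result about the listed genes as a group. Their median was 0.09 with sh2 and 0.11 with sh5.

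Among 14 tested genes of TET cofactors and base excision in SEM, 2 rose and 3 fell with sh2, where 27.9% of all genes were called, and 4 fell with sh5, where 21.3% were called. These counts too lie near the background. CXXC4 (IDAX), which in mammals binds TET2 and promotes its loss as a protein, was called lower with both hairpins. It had 0.0511, 0.0940 and 0 CPM in sh2 and 0.501, 0.668 and 0.449 CPM in sh5, against 3.48, 2.61 and 3.36 CPM in NT (adjusted p = 3.81e-08 for sh2 and 9.12e-06 for sh5). The sh2 values stand for 2, 3 and 0 reads, so no fold is given for them. GADD45A, a stress gene linked to demethylation through repair, fell with both hairpins, at 4.62 ± 0.463 CPM in sh2 and 4.28 ± 0.517 CPM in sh5, against 8.22 ± 1.03 CPM in NT (-0.83 ± 0.14, adjusted p = 3.04e-04 for sh2, and -0.94 ± 0.14, adjusted p = 1.70e-04 for sh5). CXXC5, the paralogue of CXXC4, fell with sh5 (-0.40 ± 0.07, adjusted p = 4.15e-04), as did the base excision glycosylase gene NEIL3 (-0.23 ± 0.07, adjusted p = 0.0346). IDH2, whose product α-ketoglutarate is a cosubstrate of the TET enzymes, fell with sh2 (-0.19 ± 0.05, adjusted p = 0.0122). IDH1 of the same list rose with sh2 (0.17 ± 0.06, adjusted p = 0.0492), as did the repair scaffold XRCC1 (0.25 ± 0.08, adjusted p = 0.0305). The list's median was -0.14 with sh2 and -0.10 with sh5.

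The list of methyl donor supply, with genes such as MAT2A, which makes S-adenosylmethionine, gave 0 of 6 calls with sh2 in SEM by edgeR (0 at an unadjusted p under 0.05) and 1 fall with sh5, AHCYL1 (-0.31 ± 0.06, adjusted p = 0.00150). S-adenosylmethionine was not measured, so the fall of AHCYL1 RNA says nothing about its supply. Of 5 writers of H3K36 methylation, NSD2 fell with both hairpins and NSD3 fell with sh2 (-0.15 ± 0.05, adjusted p = 0.0416). Outside SEM, the genes of these lists called in a single line were NSD2 in Reh and 697, and CXXC5 between the hairpins in RS411, where sh2 was higher than sh5 (0.51 ± 0.10, adjusted p = 0.0425).

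Markers moved with the SEM results. B-lineage markers summed to 1378 to 1418 CPM in sh2 and 1364 to 1446 CPM in sh5, against 1613 to 1761 CPM in NT. Of 11 markers, 4 were called lower with sh2, where 27.9% of all genes were called. With sh5, 5 were called lower and 2 higher, where 21.3% of all genes were called. VPREB1, a surrogate light chain gene of B-cell precursors, was 54.2 ± 2.39 CPM in sh2 and 58.9 ± 7.72 CPM in sh5, against 115 ± 12.2 CPM in NT. The 2 that rose with sh5 were RAG2 (1.87 ± 0.20, adjusted p = 6.96e-06) and DNTT (1.04 ± 0.24, adjusted p = 0.00492). Both were low in SEM, at 1.61 to 9.12 CPM and 0.793 to 3.07 CPM. RAG2 was also called higher with sh2 in RS411 (0.37 ± 0.07, adjusted p = 0.0295). Myeloid markers summed to 35.2 to 50.9 CPM in sh2 and 43.7 to 57.3 CPM in sh5, against 14.6 to 21.5 CPM in NT. Of 3 myeloid genes tested in SEM, CSF1R and ITGAM rose with sh2 (27.9% of all genes called), and these and LYZ rose with sh5 (21.3%). CSF1R, the receptor for macrophage colony-stimulating factor, made up most of this, at 40.3 ± 7.36 CPM in sh2 and 43.8 ± 4.76 CPM in sh5, against 16.1 ± 3.11 CPM in NT. The defining myeloid genes CD14, MPO and S100A8 were at 0.241 CPM or less in every SEM library. NKG7, the 1 gene of the 6 in the T-cell and NK-cell list with enough reads for the test in SEM, was called lower with sh2 (-0.40 ± 0.13, adjusted p = 0.0352), at 14.2 ± 1.81 CPM in sh2 and 18.9 ± 2.82 CPM in sh5, against 18.7 ± 2.60 CPM in NT. The part of these marker changes in the DNMT3B, DNMT3A and TET2 results was not tested.

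Likeness to other genes was measured over the 42 libraries as Pearson's r of log2 values after the mean of each line was subtracted, among 13130 genes (13131 for TET2). It is a description, since libraries of a line share depth and arms. DNMT3B was most like TGFBR1 (0.76) and EOGT (0.70), DNMT3A most like CASKIN2 (0.80) and PLXNB1 (0.77), and DNMT1 most like ZNF296 (0.77) and CNOT3 (0.74). UHRF1 was most like its pseudogene copy RP11-424C20.2 (0.97) and PLK1 (0.83). TET2 was most like RNF144A (0.79) and TRIO (0.78), TET1 most like AK4 (0.76) and NOL3 (0.75), and TET3 most like EP300 (0.93) and EP400 (0.92), both high in EK replicate 2 of 697. Among the 7 themselves, r was highest between TET1 and TET2 (0.65) and lowest between TET2 and UHRF1 (-0.56). DNMT3A and DNMT3B had an r of -0.22.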

How the data were processed

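Total RNA of 42 samples (RNeasy) was made into libraries with TruSeq stranded total RNA and RiboZero Gold reagents, per the labels' protocols, which give 54-base reads from a GAIIx. Processing used Trimmomatic, STAR (hg19) and featureCounts, per the submitters' processing notes. For these tools no version, and for the counting no strand setting, is given in the sources used here. Raw counts that the authors deposited served for SEM, RCH, RS411 and Reh. For 697 the deposited normalized signal values, which are counts scaled by a factor for each library, served instead. Division by the worth of 1 read made whole reads of 100% of values above 0, within 0.001 reads. Another 6 columns matched no sample and were not used.

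The Reh table lists Ensembl identifiers, and all 15793 genes with at least 50 reads took a symbol from the authors' normalized table. In each knockdown line 27 rows whose names had turned into dates were left out (SEM 0.230%, RCH 0.247% and RS411 0.214% of reads). Depth per library was 23688482 to 27244031 reads in Reh, 40664735 to 57179806 in 697, 27826387 to 67796769 in RS411, 21941718 to 55001132 in RCH and 32583013 to 39562010 in SEM.

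The test of counts was that of edgeR 4.0.16, run in R 4.3.3 (quasi-likelihood F-test, robust, TMM factors, filterByExpr by arm), the 3 arms of a line in 1 fit. The knockdown lines also shared a joint edgeR fit of 20225 genes, for the average response and for the difference between lines (2 degrees of freedom). For 697, genes averaging 10 or more were tested on log2(normalized count + 1) in limma 3.58.1 with a trended prior. The Benjamini-Hochberg adjustment of p-values ran over all genes tested, and a gene was called at an adjusted p under 0.05. A standard error is the log2 fold change divided by the root of F. Intervals are the log2 fold change ± 1.96 standard errors, nominally 95% for a normal distribution. They are narrower than the F-tests and t-tests allow with 2 or 3 libraries per arm. Levels are CPM on TMM-scaled library sizes, from recovered reads in 697. Exon lengths, each the union of all annotated exons of a gene, came from GENCODE v29 and promoter windows from RefSeq (GRCh38.p14), whose coordinates were set against none of the authors'. The tests were also run on counts simulated with independent libraries and the same spread for every gene. Same-numbered libraries here deviated together, so that check does not cover this feature of the data. Tables and figures were made with matplotlib 3.10.9, pandas 2.3.3, numpy 2.4.6 and Python 3.11.15.

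The 7 genes, the lists and the markers were chosen with earlier results of these data known. All 7 genes were named in every arm, as was NSD2. From each pathway list the called genes with the smallest adjusted p were named for comparisons with a control arm in a single line, at most 4 per comparison. IDH1 was named beyond these. Called list genes of the joint fit and of sh2 against sh5 in SEM were not all named. The 2 genes most like each of the 7 were named by Pearson's r. VPREB1, RAG2, DNTT, CSF1R and EP300 were picked as examples after their values were seen.

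Same-numbered libraries deviated from their arm means together in 697 (r between 0.423 and 0.604), RS411 (0.137 to 0.347), SEM (0.121 to 0.311) and the sh5 and NT arms of RCH (0.248 to 0.635), where the numbers were taken to pair the samples. The reported tests had no replicate block and so did not use this pairing. The block served only as an alternative. Some calls that depend on it are given with their genes, and others only where the dependence on processing is described. In RCH this did not hold for sh2 with NT (-0.0689 to 0.168) or sh5 (0.0964 to 0.176). In Reh r was between 0.560 and 0.599, but from 2 pairs only, so its numbers were not taken to pair the samples.

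Alternatives were the replicate block, the 2 compared arms alone, DESeq2 1.42.0, a stricter or no low-count filter, RLE factors, other pseudocounts and minimums and edgeR on recovered reads for 697, and leaving out each library or line. The sh2 with sh5 comparisons and the 697 fit of recovered reads with a block were added after the data were seen.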

Additional observations from a re-analysis of the deposited data

Results flagged for a closer look

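The sh2 response of DNMT3A differed between the 3 knockdown lines in the joint edgeR fit (adjusted p = 0.0184). Its log2 fold change for sh2 against NT was 0.11 in RS411, -0.37 in RCH and -0.22 in SEM. The adjusted p ended above 0.05 with no low-count filter, without RS411, without SEM, or without NT replicate 3 or sh2 replicate 1 or 2 of RS411.

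DNMT3A values also lay on opposite sides of the control with added wild-type NSD2. In Reh both WT libraries were below both EV libraries (log2 fold change -0.11), and in 697 all 3 WT libraries were above all 3 EV libraries (0.073). This difference between the lines was not tested, and neither value passed its own test.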

How the results depend on the processing

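No called gene changed its direction under any alternative. Of 305 alternative counts of called genes over 20 comparisons, 264 stayed within 1.5 times of the reported count and 41 did not. With the replicate block the count for EK against EV in Reh was 2 in place of 0 (TET2, adjusted p = 0.0068, and TET1, 0.0142), with 1027 genes called over all genes. Same-numbered Reh libraries deviated together (r between 0.560 and 0.599), but from 2 pairs only. In RS411 the block gave 1 in place of 0 for sh5 (UHRF1) and 2 in place of 0 for sh2 against sh5 (TET2 and, at adjusted p = 0.0459, UHRF1). For sh5 in SEM it gave 2 in place of 1 (DNMT3B and UHRF1). In the joint fit it gave 4 in place of 1 for the difference between lines with sh2 (DNMT3A, DNMT3B, UHRF1 and TET2). For sh2 against sh5 in the joint fit it gave 2 in place of 0 (DNMT3B and TET2). It changed no other count beyond 1.5 times. For sh5 in SEM the count was 0 with the 2 arms alone and with a stricter filter, and 0 to 1 without single libraries. The joint sh2 mean had 2 called genes, 1 with no low-count filter, 0 without SEM and 1 to 2 without single libraries. The joint sh2 difference had 1, 0 without RS411 or SEM, 2 without RCH and 0 to 4 without single libraries. The joint sh5 mean had 1, 0 without SEM and 0 to 1 without single libraries. Joint sh2 against sh5 had 0, 1 with no filter, 1 with DESeq2, 3 without RCH and 0 to 1 without single libraries.

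Counts over all genes moved more. The fewest and most were 0 and 1027 for EK against EV in Reh, 9 and 189 in 697, 11 and 2495 for sh2 in RS411, 15 and 1937 for sh2 in RCH, and 3915 and 6455 for sh2 in SEM. Depth limits TET2 in 697 (5 to 11 reads) and TET1 in 697 and SEM (5 to 55 reads). Smaller changes were not detectable at these counts.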
